A study of Mus musculus with 4 samples.

Results

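Twist1, Twist2, Snai1, Snai2, Zeb1, Zeb2, Prrx1 and Prrx2, the transcription factors of the Twist, Snail, Zeb and Prrx families, were followed in the frontonasal prominence (FNP), the tissue that forms the forehead and the nose, of mouse embryos. The members were chosen by gene symbol, and the 8 symbols matched 8 of the 33708 rows of the expression table. FNPs were dissected from FVB/NJ embryos at E10.5 with 29 somites. The comparison asked whether the MommeD43 allele of Smchd1, a gene for a chromatin protein that silences the inactive X chromosome and some clustered genes, altered expression in this tissue. The WT group held 2 Smchd1+/+ embryos, a female and a male by their labels, and the MD43 group held 2 Smchd1MommeD43/MommeD43 embryos, both male. Another record of the study names the second WT embryo as female, and if that record holds, sex and genotype cannot be told apart in any difference given here. MommeD43 is a chemically induced missense allele present in every cell, so it is not restricted to the FNP or to one cell type. The embryo numbers, which begin with the number of the mother, give the second WT embryo and MD43 replicate 2 one mother. Each RNA sample was the whole prominence, with mesenchyme, surface ectoderm, blood and vessels together, and it also held RNA of neural genes.

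In the embryonic face, mesenchyme is a loosely packed tissue made largely by neural crest cells, which leave the dorsal neural tube by an epithelial to mesenchymal transition and migrate into the facial prominences. Snail and Zeb proteins are zinc finger factors that repress genes of epithelial junctions by binding a short motif, CACCTG, while Twist proteins are basic helix-loop-helix factors that pair with E proteins on motifs of the form CANNTG. Prrx proteins are paired-related homeodomain factors of limb and facial mesenchyme.

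The table held 1 log2 RPKM value per gene and genotype, which was the mean of the log2 values of both libraries, so no spread between embryos could be computed and no test between genotypes was possible. RPKM is reads per kilobase of exon, scaled to the depth of the library, so levels can be compared between genes. The number of reads behind each value was recovered from the values themselves and is given as the geometric mean of the 2 libraries of a genotype. The implied depth was 22328791 reads per library for MD43 and 16055882 for WT, so MD43 values rested on 1.39 times more reads. Every error given below is the smallest standard error that the counting of reads allows, and the 95% counting intervals made from it leave out variation between embryos. Smchd1 itself had 3.30 log2 RPKM in MD43 and 3.31 in WT, a difference of -0.01 ± 0.02 (counting SE). Because the allele changes a codon and need not change the amount of RNA, this level does not check the genotype labels.

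All 8 factors had a lower value in MD43 than in WT, and 5 of them when the median of the 16 mesenchymal structural genes described below was used as the reference, where Snai1, Prrx1 (by less than its counting error) and Prrx2 were higher. Snai2 was among the 5 lower ones by less than its counting error. Against the median of the 13 structural genes with 100 reads or more in each genotype all 8 were lower, Snai1 by less than its counting error. At least 10 reads in WT or MD43 were found for 15377 genes, and of these 48.8% were lower in MD43 and 51.2% higher, with a median log2 difference of 0.01. The median difference of the 8 factors was -0.35, a level 21.7% lower, and the 8 differences ran from -0.71 for Twist2 to -0.15 for Snai1. For each of the 8 the 95% counting interval lay below 0. The share of all genes with such an interval was not computed, so this count is not read as a result about the factors. These intervals leave out variation between embryos. Of the 16 mesenchymal structural genes, 8 had an interval below 0 and 5 had one above. Of the 7 E and Id proteins described below, 4 had one below and 3 one above. The differences of the 8 factors were small in size. Twist2 was the one factor at least 1.5-fold lower in MD43, a size reached by 6.43% of all 15377 genes, and it no longer reached that size with 1 RPKM added before the log (-0.41) or against the mesenchymal structural median (-0.41). At least 1.5-fold higher were 0 factors, against 4.24% of all genes. None of the 8 was 2-fold lower, a size reached by 2.47% of genes. For the 10757 genes that had 100 reads or more in WT and in MD43, the central 95% of differences lay between -0.51 and 0.38, and 7 of the 8 factors fell inside that range. In RNA from a whole tissue, fewer cells of a type and less RNA per cell cannot be told apart.

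**Figure D1:**
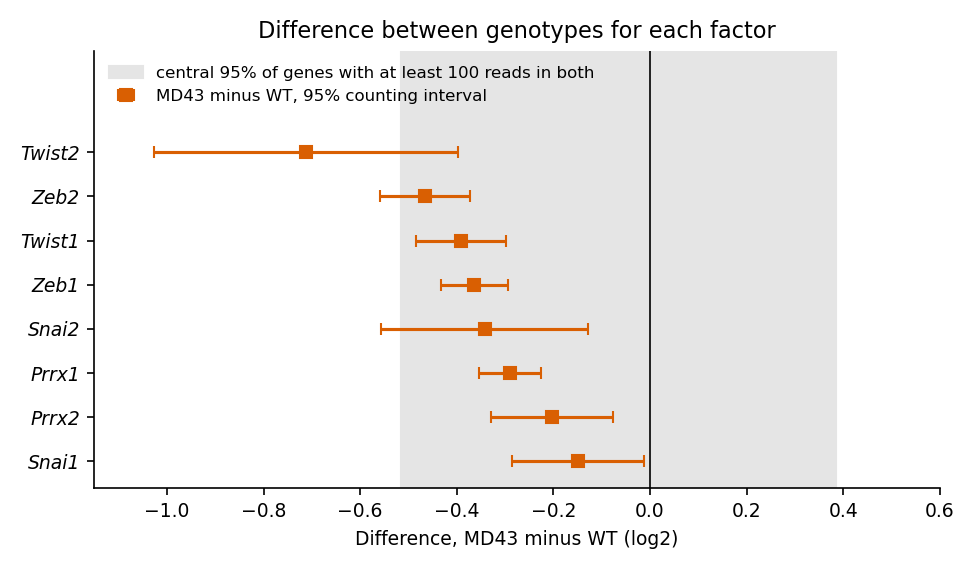
Log2 difference, MD43 minus WT, for each factor (squares), with 95% counting intervals (bars) and the central 95% of the differences of genes reaching 100 reads in both (grey band, -0.51 to 0.38). The 8 squares lie left of 0, from -0.15 for Snai1 to -0.71 for Twist2, and Twist2 alone lies outside the band. Against the median of all 16 mesenchymal structural genes Snai1, Prrx1 and Prrx2 were higher, Prrx1 by less than its counting error. Snai2 was lower than that median by less than its counting error. Against the 13 with at least 100 reads in each genotype all 8 were lower, Snai1 by less than its counting error.

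Twist1, a factor needed in the cranial mesenchyme and the sutures of the skull, was the most abundant of the 8. The gene (ENSMUSG00000035799) lies on the plus strand of chromosome 12 from 33957671 to 33959829 (GRCm38) and has 1628 bp of exon. Its level was 34.5 RPKM in WT, from 902 reads, and 26.3 RPKM in MD43, from 957 reads. The raw reads were thus slightly more in MD43, and the level was lower because it is set against the deeper MD43 libraries. MD43 minus WT was -0.39 ± 0.05 on the log2 scale (95% counting interval -0.48 to -0.30), a level 23.7% lower. Of all genes, 11.2% had a difference as low or lower.

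Twist2, the close relative of Twist1 that acts in dermis and later mesenchyme, was the least abundant. The gene (ENSMUSG00000007805) lies on the plus strand of chromosome 1 from 91801461 to 91848028 and has 3174 bp of exon. Its level was 1.73 RPKM in WT and 1.05 RPKM in MD43, from 88.0 and 74.7 reads. The difference was the largest of the 8, -0.71 ± 0.16 on the log2 scale (-1.03 to -0.40), or 1.64-fold lower, and 4.58% of all genes were as low or lower. It also rested on the fewest reads of the 8. The antisense gene Gm29100 overlaps 1477 bp of the exons of Twist2 and was itself lower in MD43, by -0.54 ± 0.22, from 43.4 reads in MD43 and 45.3 in WT. Whether the authors counted reads by strand was not stated, so reads of this pair may not have been told apart.

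Snai1, the Snail factor needed for gastrulation, showed the smallest difference. It (ENSMUSG00000042821) lies on the plus strand of chromosome 2 from 167538195 to 167542814, with 1621 bp of exon. Its level was 14.7 RPKM in WT and 13.3 RPKM in MD43, from 382 and 479.6 reads. On the log2 scale it differed by -0.15 ± 0.07, a level 9.80% lower (on the log2 scale, 0.15 higher against the mesenchymal structural median), and its counting interval of -0.29 to -0.01 reached almost to 0. Of all genes, 26.7% were as low or lower, so a difference of this size was common in the table.

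Snai2, also known as Slug, marks premigratory and migrating neural crest in many vertebrates. It (ENSMUSG00000022676) lies on the plus strand of chromosome 16 from 14705852 to 14709385, with 2021 bp of exon. Its level was 5.10 RPKM in WT and 4.02 RPKM in MD43, from 165 and 181 reads. This gave a log2 difference of -0.34 ± 0.11 (-0.56 to -0.13), a level 21.1% lower, and 13.1% of all genes were as low or lower.

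Zeb1, a zinc finger and homeodomain repressor of epithelial genes, lies on the plus strand of chromosome 18 from 5591860 to 5775467 (ENSMUSG00000024238), with 10266 bp of exon. Its level was 9.62 RPKM in WT and 7.48 RPKM in MD43, from 1586 and 1715 reads. The log2 difference was -0.36 ± 0.04 (-0.43 to -0.29), a level 22.3% lower, and 12.2% of all genes were as low or lower. The antisense gene Gm10125 overlaps 198 bp of the Zeb1 exons and had 13.3 reads in MD43 and 19.5 in WT, few beside those of Zeb1.

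Zeb2, the second Zeb factor, which is needed for neural crest formation and for neural and glial development, lies on the minus strand of chromosome 2 from 44983632 to 45117395 (ENSMUSG00000026872), with 19942 bp of exon. Its level was 2.85 RPKM in WT and 2.06 RPKM in MD43, from 912 and 918 reads. The log2 difference was -0.47 ± 0.05 (-0.56 to -0.37), a level 27.6% lower, and 8.99% of all genes were as low or lower. The antisense transcript Zeb2os overlaps 653 bp of the Zeb2 exons and was lower in MD43 by -1.18 ± 0.20, from 40.1 reads in MD43 and 65.2 in WT. These reads were few beside those of Zeb2.

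Prrx1, which shapes limb and skull mesenchyme, had the most reads of the 8. It (ENSMUSG00000026586) lies on the minus strand of chromosome 1 from 163245119 to 163313710, with 11066 bp of exon. Its level was 10.3 RPKM in WT and 8.46 RPKM in MD43, from 1839 and 2091 reads. The log2 difference was -0.29 ± 0.03 (-0.35 to -0.23), a level 18.2% lower (on the log2 scale, 0.0078 higher against the mesenchymal structural median), and 15.6% of all genes were as low or lower. Prrx2, which acts together with Prrx1 in the lower jaw and limb, lies on the plus strand of chromosome 2 from 30834972 to 30881251 (ENSMUSG00000039476), with 1961 bp of exon. Its level was 14.7 RPKM in WT and 12.7 RPKM in MD43, from 462 and 558 reads. The log2 difference was -0.20 ± 0.06 (-0.33 to -0.08), a level 13.1% lower (on the log2 scale, 0.09 higher against the mesenchymal structural median), and 21.4% of all genes were as low or lower.

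The order of the levels was the same in both genotypes. Twist1 was highest, followed by Snai1 and Prrx2, Prrx1, Zeb1, Snai2, Zeb2 and Twist2. Of the 7 neighbouring pairs in this order, Snai1 and Prrx2 alone did not differ beyond their counting interval, with a gap of 0.0026 ± 0.07 log2 RPKM in WT and 0.06 ± 0.06 in MD43. Twist1 stood high in the tissue as a whole, since 9.07% of the 15377 genes had a higher level in WT and 13.1% in MD43. Twist2 stood low, with 71.3% of genes above it in WT and 77.4% in MD43. Snai2 lay near the middle of all genes, with 50.04% above it in WT.

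**Figure D2:**
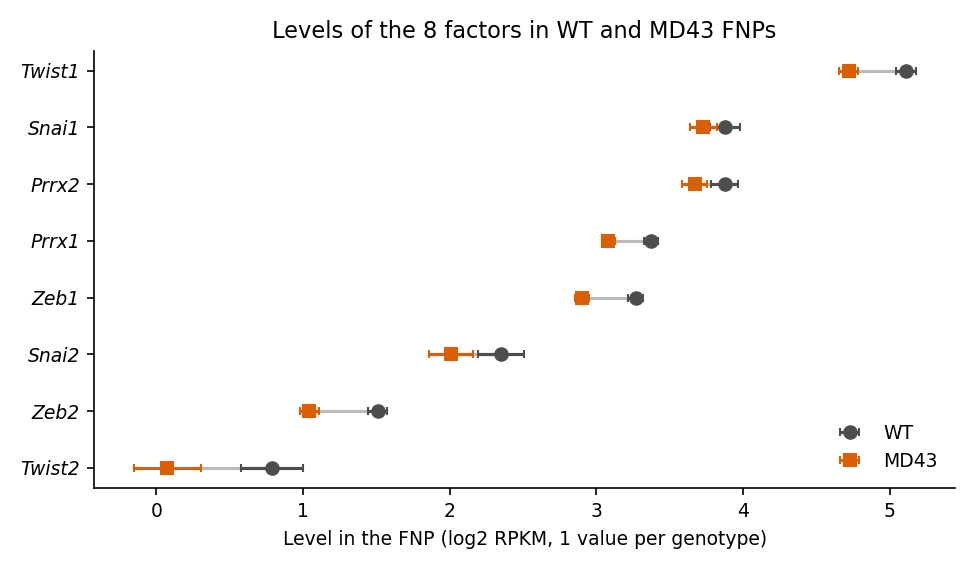
Level of each factor in log2 RPKM, with 1 value per genotype (circles WT, squares MD43) and 95% counting intervals as bars. Each MD43 square lies left of its WT circle, and the order from Twist1 at the top (5.11 in WT) to Twist2 at the bottom (0.79 in WT) is the same in both genotypes. Against the median of all 16 mesenchymal structural genes Snai1, Prrx1 and Prrx2 were higher in MD43, Prrx1 by less than its counting error. Snai2 was lower than that median by less than its counting error. Against the 13 with at least 100 reads in each genotype no factor was higher, but Snai1 was lower by less than its counting error.

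Within each family the balance of both members was compared between genotypes. Twist1 was 20.0 times as abundant as Twist2 in WT and 25.0 times in MD43, a change in the log2 ratio of 0.32 ± 0.17 (95% counting interval -0.0067 to 0.65). Snai1 was 2.88 times as abundant as Snai2 in WT and 3.30 times in MD43, a change of 0.19 ± 0.13 (-0.06 to 0.45). Zeb1 was 3.38 times as abundant as Zeb2 in WT and 3.63 times in MD43, a change of 0.10 ± 0.06 (-0.01 to 0.22). In the Prrx family it was Prrx2 that was higher, 1.42 times Prrx1 in WT and 1.51 times in MD43, and the log2 ratio of Prrx1 to Prrx2 changed by -0.09 ± 0.07 (-0.23 to 0.05). The 4 intervals all included 0, so no shift between family members was detectable beyond counting error, and in the first 3 families the widest shift the interval allowed was 0.65.

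The factors were set beside structural genes of mesenchyme, 16 genes for filaments, matrix and its receptors. The median difference of these genes was -0.30, with 11 lower and 5 higher in MD43, against 48.8% of all genes lower. Of these, 2 were at least 1.5-fold lower, a size reached by 6.43% of all genes. They were Lox, which crosslinks collagen (-1.44 ± 0.21, from 36.4 reads in MD43 and 70.9 in WT), and Col1a1, a chain of type I collagen (-1.25 ± 0.08). Vim, the intermediate filament of mesenchyme and the most abundant gene of the list, was lower by -0.42 ± 0.01. Postn, a matrix protein, had a difference of -0.50 ± 0.20 from 49.7 reads in MD43 and 50.4 in WT. The 5 higher genes, named after their values were seen, were Mmp2 (0.20 ± 0.06), Fn1 (0.19 ± 0.02), Itga5 (0.18 ± 0.06), Fbn2 (0.10 ± 0.04) and Col1a2 (0.12 ± 0.03). Col1a2 is also a chain of type I collagen. Over the 13 structural genes with 100 reads or more in each genotype the median was -0.09, with 8 lower and 5 higher. Against the median of all 16, 5 factors were lower, Snai2 by less than its counting error, and 3 higher. Against the median of these 13, all 8 factors were lower, Snai1 by less than its counting error. Alx1, Alx4 and Pdgfra mark facial mesenchyme and were detected in both genotypes, so the defining markers of the labelled tissue were present. Alx1 had a difference of 0.17 ± 0.05, Alx4 of 0.01 ± 0.03 and Pdgfra of -0.33 ± 0.05. The 8 factors lay below the median of these 3 markers, which was the value of Alx4, 0.01. Pdgfra, which is also 1 of the 16 structural genes, lay lower than Snai1 (-0.15), Prrx1 (-0.29) and Prrx2 (-0.20).

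Of 10 neural crest genes, 9 reached 10 reads, and 7 of these were lower and 2 higher in MD43, with a median of -0.18. Pax7, a factor of the neural plate border and of nasal crest, was higher (0.39 ± 0.06). Mef2c (-0.37 ± 0.11), Ets1 (-0.25 ± 0.05) and Msx1 (-0.17 ± 0.03), factors of crest and its mesenchyme, had negative differences. Sox10, a marker of migrating crest and glia, was near the limit of detection, with 6.25 reads in MD43 and 10.8 in WT.

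Markers of the other tissues in the prominence moved in both directions beside the factors. The 6 red blood cell genes that were found were all higher in MD43, with a median of 0.86 and with 0.388% of the reads in MD43 against 0.205% in WT. Slc4a1, the band 3 protein of the red cell membrane, was higher by 1.52 ± 0.08, Hbb-bh1, an embryonic globin, by 1.04 ± 0.01, and Klf1, the factor of globin genes, by 0.88 ± 0.19. Gata1 and Alas2 were not analysed here. Of 6 neural genes 4 were lower and 2 higher, with a median of -0.09 and the widest differences in Pax6 (-0.35 ± 0.03), Sox1 (-0.23 ± 0.04) and Sox2 (-0.13 ± 0.03), while Tubb3, the most abundant, had 0.02 ± 0.03. These neural genes took 0.101% of the reads in MD43 and 0.105% in WT, and in WT Tubb3 had 77.8 RPKM and Sox1 18.3. Of 6 endothelial genes 4 were lower and 2 higher, with a median of -0.03, among them Kdr (-0.33 ± 0.08), Tie1 (0.23 ± 0.13), Pecam1 (-0.17 ± 0.13) and Cdh5 (-0.01 ± 0.10). The reads of red blood cell genes, and those of the epithelial genes given next, differed between the averaged values of the genotypes. Whether a single embryo made these differences cannot be told from averaged values. Their part in the lower values of the 8 factors was not tested.

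**Figure D3:**
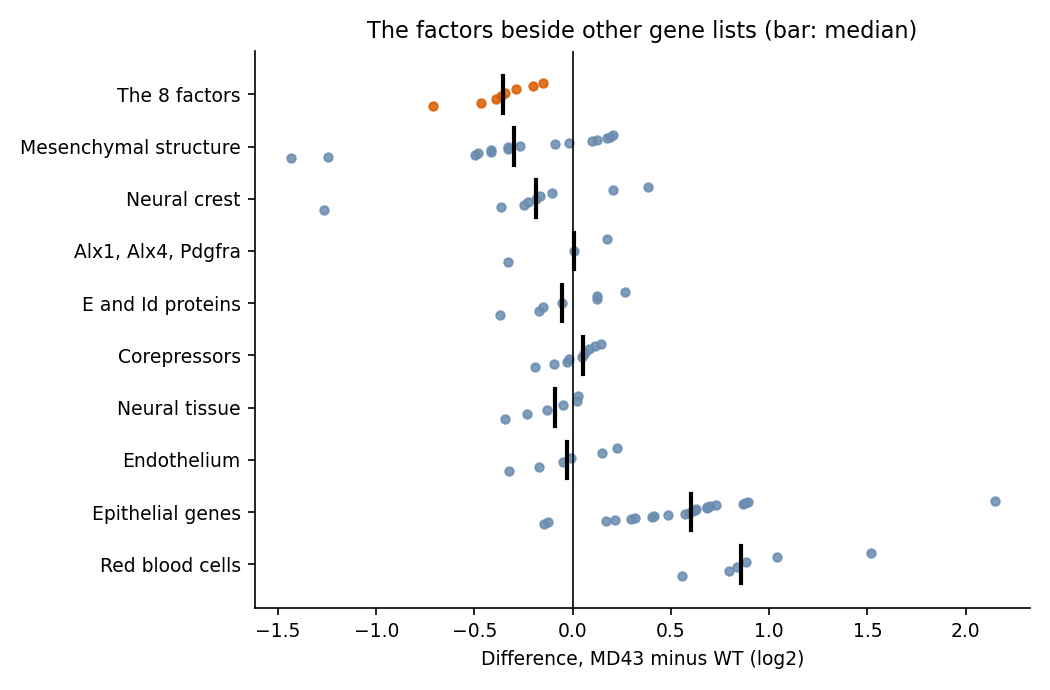
Log2 difference, MD43 minus WT, for each gene reaching 10 reads in a genotype (points) of 10 gene groups, with the median of each group as a black bar. The 8 factors lie left of 0 around a median of -0.35, the epithelial genes mostly right of 0 around 0.60, and the red blood cell genes all right of 0 around 0.86.

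Genes of epithelium, which Snail and Zeb factors are known to repress, were mostly higher in MD43. Of 22 genes for junctions, keratins and epithelial regulators, 20 were higher and 2, Krt19 and Ovol1, had negative values, against 51.2% of all genes higher. The median difference was 0.60, or 1.52-fold, and 12 were at least 1.5-fold higher, against 4.24% of all genes. For 19 the counting interval, which leaves out variation between embryos, lay above 0. The share of all genes with an interval that leaves out 0 was not computed, so this count is not read as a result about the list. St14, a membrane protease of epithelium, was higher by 0.89 ± 0.08 (545 reads in MD43, 211 in WT). Cldn7, a tight junction claudin, was higher by 0.87 ± 0.09 (498 and 195 reads), and Cldn6, an embryonic claudin, by 0.87 ± 0.05 (1701 and 671 reads). Krt18, a keratin of simple epithelia and the most abundant of the list, was higher by 0.49 ± 0.04. Cdh1, the E-cadherin of epithelial junctions and a well known target of Snai1, was named after its value was seen, and was higher by 0.73 ± 0.05 (1156 and 501 reads). The list took 0.0708% of the reads in MD43 and 0.0469% in WT, so it stood for a small part of the RNA in both. Cdh2, the N-cadherin of mesenchyme and neural tissue, also named after its value was seen, had a difference of -0.02 ± 0.02.

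The letters that Snail and Zeb proteins recognise were searched in the promoters of the same genes. The windows ran from 250 bases before to 50 bases after the start site of each gene in RefSeq (GRCm38.p6), and the motif was CACCTG on either strand, which reads CAGGTG on the other strand and is one form of the wider motif CANNTG. Of 27025 genes with a window, 22.6% held the motif, and of the 10972 genes with a window that reached 10 reads, 21.6% did. Of the 22 epithelial genes 13 had a window, and 12 of these, all except Ovol2, held it (92.3%). Cdh1 had no window. The list was chosen by hand from genes of epithelium, which Snail and Zeb factors are known to repress. A high share with the motif may therefore follow from the choice, and its link to the higher values in MD43 was not tested. Of the mesenchymal structural genes it was found in 1 of 9 with a window, and of the crest genes in 1 of 6. Of the 8 factors, 6 had a window, and Snai1 alone held the motif, 1 copy with its first base at position -126, where 0 is the first transcribed base. For the wider motif CANNTG the counts were 75.0% of all genes, 12 of 13 epithelial genes, 5 of 9 mesenchymal structural genes and 1 of 6 factors, again Snai1. Median GC content of the windows was 60.7% for the factors, 61.0% for the epithelial genes and 60.7% for all genes reaching 10 reads. A match to these letters is not a measured binding site, and binding was not measured in these samples.

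The 250 bases before the start site are given for 5 genes, 5′ to 3′ on the strand of the gene (RefSeq, GRCm38.p6), with the motif in capitals. Snai1 is shown as the one factor with the motif and Twist1, the most abundant factor, as one without it, and Epcam, Cldn4 and Crb3 as epithelial genes that hold it.
Snai1 (chr2:167537945-167538194, plus strand): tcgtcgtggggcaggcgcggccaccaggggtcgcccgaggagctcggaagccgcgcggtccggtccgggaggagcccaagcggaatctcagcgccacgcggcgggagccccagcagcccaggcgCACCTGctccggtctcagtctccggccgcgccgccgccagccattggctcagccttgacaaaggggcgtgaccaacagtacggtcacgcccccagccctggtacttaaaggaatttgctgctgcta
Twist1 (chr12:33957421-33957670, plus strand): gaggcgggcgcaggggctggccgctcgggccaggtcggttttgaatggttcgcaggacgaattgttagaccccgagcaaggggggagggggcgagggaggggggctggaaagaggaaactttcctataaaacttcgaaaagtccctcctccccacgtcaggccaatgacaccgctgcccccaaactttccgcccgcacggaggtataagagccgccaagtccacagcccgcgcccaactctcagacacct
Epcam (chr17:87635729-87635978, plus strand): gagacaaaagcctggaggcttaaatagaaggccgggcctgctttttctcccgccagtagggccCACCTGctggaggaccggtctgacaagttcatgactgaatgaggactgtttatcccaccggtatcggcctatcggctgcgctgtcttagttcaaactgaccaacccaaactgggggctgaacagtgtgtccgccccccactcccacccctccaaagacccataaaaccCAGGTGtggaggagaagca
Cldn4 (chr5:134946935-134947184, minus strand): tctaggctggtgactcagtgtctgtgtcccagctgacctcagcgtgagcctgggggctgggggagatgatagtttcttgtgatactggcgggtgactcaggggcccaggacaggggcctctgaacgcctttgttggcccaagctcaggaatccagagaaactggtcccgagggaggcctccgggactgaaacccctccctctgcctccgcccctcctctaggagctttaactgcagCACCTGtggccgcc
Crb3 (chr17:57061981-57062230, plus strand): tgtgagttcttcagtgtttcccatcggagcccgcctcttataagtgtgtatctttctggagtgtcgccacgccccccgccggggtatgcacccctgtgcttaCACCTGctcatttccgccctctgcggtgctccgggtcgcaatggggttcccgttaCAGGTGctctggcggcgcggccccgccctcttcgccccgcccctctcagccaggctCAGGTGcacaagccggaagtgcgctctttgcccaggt
In these upstream bases Snai1 and Cldn4 have 1 copy each, Epcam has 2 and Crb3 has 3, and Twist1 has 0. The copies of Epcam begin at positions -187 and -19, that of Cldn4 at -14, and those of Crb3 at -148, -93 and -37. In MD43 the level of Epcam, a cell adhesion molecule of epithelium, was higher by 0.61 ± 0.05. Cldn4, a tight junction claudin, was higher by 0.57 ± 0.07, and Crb3, a protein of the apical membrane, by 0.68 ± 0.15. Ovol2, whose window lacked the motif, had the largest rise of the epithelial list, 2.15 ± 0.46, from 34.9 reads in MD43 and 5.66 in WT. Marveld2 (0.22 ± 0.10) and Rab25 (0.30 ± 0.15), which hold the motif, rose less. Ovol2, Marveld2 and Rab25 were chosen for these values after they were seen.

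**Figure D4:**
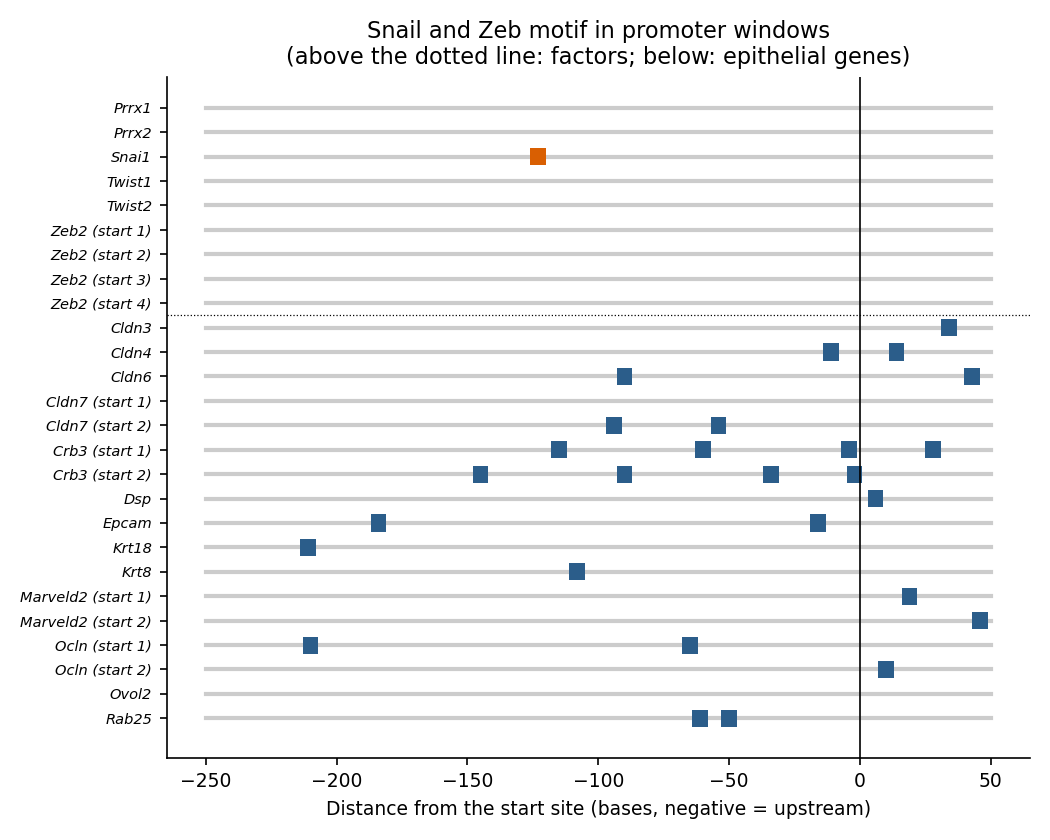
Position of the motif CACCTG, on either strand, in promoter windows of the factors (above the dotted line) and of the epithelial genes (below it), in bases from the start site, with negative values upstream. Each grey line is a window from 250 bases before to 50 after a start, and genes with several starts have several lines. Among the factors only Snai1 has a mark, at -126, while 12 of 13 epithelial genes have at least 1.

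Partners and cofactors of the factors had medians near 0. Of 7 E and Id proteins, which pair with Twist proteins or block that pairing, 4 were lower and 3 higher in MD43, with a median of -0.05. Id2 was lower by -0.37 ± 0.04 and Id4 higher by 0.27 ± 0.03, and Tcf12, an E protein, had a difference of -0.17 ± 0.02. Id3, the most abundant, had -0.05 ± 0.02. Of 10 corepressors that Snail and Zeb proteins recruit, 4 were lower and 6 higher, with a median of 0.05 and a range of -0.19 to 0.15. Among them were Wtip (-0.19 ± 0.06), Limd1 (0.15 ± 0.03) and Ctbp1 (0.11 ± 0.02). In both lists 0 genes were at least 1.5-fold lower or higher, against 6.43% and 4.24% of all genes.

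Other members of the same protein families were mostly at or near the limit of detection. Of 12 such genes, 6 had fewer than 10 reads in both genotypes. Among the other 6 the median difference was -0.58, with 4 lower and 2 higher. Tcf15, a helix-loop-helix factor of somites, had -1.34 ± 0.32 from 15.7 reads in MD43 and 28.5 in WT. Scrt2 (-0.87 ± 0.22) and Scrt1 (-0.74 ± 0.19), neuronal relatives of Snail, and Shox2, a homeodomain factor related to Prrx (-0.42 ± 0.17), had negative values too.

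Genes around the 8 loci were compared with the factors. Within 100 kb of a factor or overlapping it lay 33 other genes, of which 22 reached 10 reads, 9 of them lower and 13 higher in MD43, with a median of 0.09. Of the 15 with 100 reads or more in each genotype, 3 were lower and 12 higher, with a range of -0.28 to 0.46. Of all genes with that many reads 47.2% were lower. Apart from Hdac9 near Twist1, the higher neighbours all lay near Snai1 or Prrx2, both on chromosome 2. Snai2 and Zeb1 had no neighbour with that many reads. The 3 lower ones were Gtdc1 near Zeb2 (-0.28), Gorab near Prrx1 (-0.12) and Hdac4 near Twist2 (-0.11). Asb6, which lies 4638 bp from Prrx2, was the highest at 0.46, and Hdac9, a histone deacetylase 87750 bp from Twist1, was higher by 0.24 ± 0.10. Each factor with a neighbour of at least 100 reads in both genotypes had a lower difference than every one of these neighbours. With the minimum of 10 reads this did not hold for the Zeb genes. Zeb2os (-1.18 ± 0.20) lay below Zeb2 (-0.47). Gm10125 (-1.03 ± 0.36) and Gm2238 (-0.57 ± 0.45), which lies 148 bp from Zeb1, lay below Zeb1 (-0.36). Gm20431, near Snai1, overlaps both Ube2v1 and Tmem189 and may share reads with them. The genes that overlapped the exons of a factor, Zeb2os, Gm10125 and Gm29100, were those on the opposite strand given above, and all 3 had lower values in MD43.

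**Figure D5:**
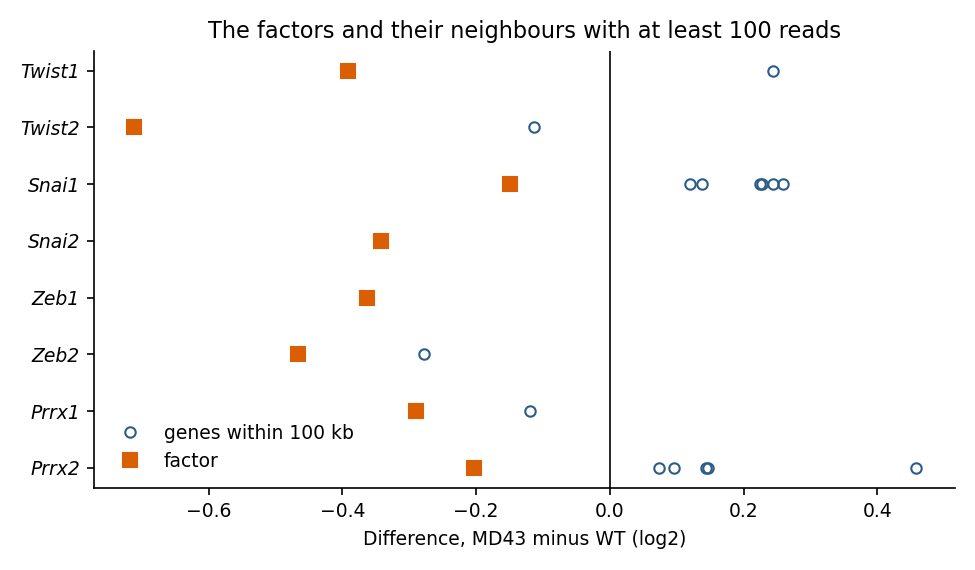
Log2 difference, MD43 minus WT, of each factor (squares) and of the genes within 100 kb of it that reached 100 reads in WT and in MD43 (open circles). Most circles lie right of 0, mainly those beside Snai1 and Prrx2, up to 0.46 beside Prrx2, and no circle lies left of the square of its factor. Factors without a circle have no such neighbour.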

How the data were processed

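RNA-seq was made from the FNPs of 2 WT and 2 MD43 embryos, and groups, sexes and replicate numbers come from the labels. Libraries were stranded mRNA from 100 ng of total RNA. The authors trimmed reads with Trim Galore 0.4.4, mapped them with HISAT2 2.0.5 to GRCm38.p6 and quantified them with SeqMonk 1.47.2. The deposited table holds log2 RPKM values that the authors scaled by depth and length, as a single column for each genotype, on 19 autosomes. It also holds the authors' fold change, mean and q-value columns, which were not used. The planned unit was counts or values per library, and since neither is in this table, no test was run.

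Rows were joined to GENCODE M21 on symbol and coordinates (33101 of 33708), and 9 rows (0.0267%) named no gene. The most frequent difference, -0.4758, marks genes without reads, counted as 0.9 reads per library. The level of these genes together with exon length gave the depth and the product of the reads of both libraries, and 99.9% of the products under 1000 were whole, 0.9 times a whole number or 0.9 squared (tolerance 0.02) in both genotypes. The recovery was tested on simulated data built with the same formula. That test checks the computation and cannot check whether the authors' values follow the formula. The minimum was 10 reads in at least 1 genotype, with 100 reads in both as an alternative. A 1.5-fold difference counts as called, with 2-fold as an alternative. Also tried were 0.1 or 1 RPKM added before the log, differences centred on the median gene, and a correction for GC content and length.

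The members and lists were chosen with earlier results of these data known, and some marker genes are not reported here and were left out of their lists. Named are all 8 factors, Smchd1, neighbours within 100 kb, and from each list the 3 largest differences among genes with at least 50 reads plus the most abundant gene; any other gene is named as context or as chosen after its value was seen. Sequences are those of RefSeq. Python 3.11.15, NumPy 2.4.6, pandas 2.3.3 and Matplotlib 3.10.9 were used.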

Additional observations from a re-analysis of the deposited data

How the results depend on the processing

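In 139 alternative computations 118 values moved by less than a counting interval or stayed within 1.5 times as counts. Another 17 moved further and 4 changed sign. For the median of a list, the interval came from the counting errors of its genes. Wide intervals let large moves pass. With 1 RPKM added, the median of the other family members went from -0.58 to -0.26 and counted among the 118. So did the change of the Twist1 to Twist2 log2 ratio, from 0.32 to 0.03. Of 40 recomputed differences of single factors apart from the centring given last, all 40 kept a lower value in MD43, and 37 stayed within the counting interval. Most of these could not change a sign. Adding RPKM before the log never reverses a difference, and centring on the median gene subtracted only 0.0057 or 0.013. Among them the GC and length correction alone could have done so. With a pseudocount of 1 RPKM, the difference of Zeb2 was -0.33 and that of Twist2 -0.41, 0 factors were 1.5-fold lower, and the median of the mesenchymal structural genes was -0.10. After the GC and length correction, which accounted for 1.40% of the variance, Zeb2 had -0.37, Prrx1 -0.22 and the endothelial median was 0.026. With 2-fold in place of 1.5-fold, 0 factors were called lower. Called 1.5-fold lower were 191 of all genes when 100 reads in both genotypes were required and 2589 with no filter, and 62 and 1536 were called higher. The mesenchymal structural median was -0.088 with at least 100 reads in both. Centring on the median of the mesenchymal structural genes, an alternative chosen after seeing the data, gave Twist1 -0.093, Twist2 -0.41, Snai1 0.15, Snai2 -0.044, Zeb1 -0.066, Zeb2 -0.17, Prrx1 0.0078 and Prrx2 0.095, with 5 factors lower and 0 at least 1.5-fold lower. In this centring the values of Snai2 and Prrx1 were smaller than their counting errors. The sign of Snai1, Prrx1 and Prrx2 thus depends on the reference. Against the 13 such genes with at least 100 reads in both all 8 factors were lower, but Snai1 only by -0.060 ± 0.07. No paired analysis was possible because the values of single libraries were averaged within each genotype, and leaving out a replicate was not run for that reason. With 2 embryos a group and no spread between them, the counting errors are lower limits, and sex was not balanced between the genotypes by the labels, and is confounded with genotype if the other record of the second WT embryo holds.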

Other observations

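Dnm3os, the host transcript of a pair of microRNAs that Twist1 is known to induce in mesenchyme, was looked up after the values of the 8 factors had been seen. It lies on chromosome 1 from 162217623 to 162225550 and had 185 reads (MD43) against 196 (WT). The log2 difference was -0.57 ± 0.10, or 1.48-fold lower, and 6.77% of all genes were as low or lower. A link of this value to the level of Twist1 was not tested. Snai3, a further Snail gene, had 13.9 reads in MD43 against 2 in WT, which is near the limit of detection. Scx, a relative of Twist that marks tendon precursors, had 0.50 ± 0.31.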
